A study of Homo sapiens with 30 samples.

Results

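The imprinted H19 and IGF2 locus on the short arm of chromosome 11 was examined for binding of CTCF, MBD3, TET1 and TET2 in HEK293T cells. Its members were all peak regions that overlapped positions 1950000 to 2200000 of chromosome 11 in the hg19 build. They numbered 20 of the 70565 regions in the 8 deposited peak lists. Of these, 14 were CTCF regions and 5 were TET1 regions, all from cells without indole-3-acetic acid (IAA), and 1 was a TET2 region from cells with IAA. MBD3 gave no region at the locus in either condition. Its whole lists held 6608 regions without IAA and only 50 with IAA.

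HEK293T is an established line from human embryonic kidney. All cells carried an edited CTCF gene and were co-transfected with the plasmids pcDNA3.1-ScFv-miniIAA7-mEGFP and pcDNA3.1-AtAFB2-mCherry, which supply the parts of an auxin-inducible degradation system. They were then kept for 72 h without IAA or with 0.5 mM IAA, the auxin that triggers degradation. The treatment label gives the first condition as DMSO, which the protocol does not mention. Whether the edited line is 1 clone was not given in the sources used here. Each antibody and condition had 3 samples, and the authors pooled these before calling peaks, so every value below is a single pooled value with no replicate error, and no difference between conditions was tested.

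H19 is a long non-coding RNA made from the maternal chromosome, and IGF2, an insulin-like growth factor of fetal growth, is made mainly from the paternal chromosome. Between them lies an imprinting control region that is methylated on the paternal chromosome. CTCF, a zinc-finger protein that anchors chromatin loops and insulates enhancers, binds the unmethylated maternal copy and keeps IGF2 from enhancers on the far side of H19. MBD3 belongs to the NuRD complex, which moves nucleosomes and removes acetyl groups from histones. TET1 and TET2 oxidise methylated cytosine. The peak lists do not separate the parental chromosomes. For position, H19 was taken at about 2.016 to 2.019 Mb, the control region at about 2.020 to 2.025 Mb and IGF2 at about 2.150 to 2.171 Mb. In the RefSeq gene table of build GRCh38.p14, used for order only, MRPL23, MRPL23-AS1, H19, IGF2, INS and TH follow each other in the direction of rising coordinates.

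Of the 2 genes, the RefSeq promoter table of build GRCh38.p14 was used for H19. The sequences of the CTCF regions themselves were not used here. The H19 promoter is shown because the densest CTCF binding of the locus lay on the 5′ side of this gene and because TET enzymes act on methylated CG pairs, which are in capitals. It runs 5′ to 3′ on the minus strand, from 250 bases before to 50 after the annotated start, and was not placed against the hg19 regions. Whether this annotated start is that of the H19 span taken above was not checked. The CG pairs and GC content below therefore describe the printed stretch only.
H19, chr11:2001217-2001516: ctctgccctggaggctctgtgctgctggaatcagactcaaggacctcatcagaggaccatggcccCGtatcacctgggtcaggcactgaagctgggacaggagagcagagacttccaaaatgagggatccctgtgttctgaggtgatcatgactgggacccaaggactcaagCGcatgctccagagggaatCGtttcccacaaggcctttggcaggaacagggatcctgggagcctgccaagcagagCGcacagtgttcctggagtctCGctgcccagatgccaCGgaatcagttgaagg
This stretch of 300 bases held 6 CG pairs, and 33.7% of the 35116 RefSeq promoters of the same length held fewer. The median over those promoters was 14. The GC content was 57.7%, against a median of 58.7%.

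The 14 CTCF sites, numbered here in order of position, ranged from weak to strong. Their fold enrichment, the ratio over control computed by the authors' peak caller, ran from 5.94 to 35.8 with a median of 12.7. The whole list of 42925 CTCF regions had a median of 13.6 (quartiles 7.43 and 24.2), so the locus sat near the middle of the list. By fold, 4 of the 14 sites lay above the upper quartile, and the strongest, site 12, ranked 4043, in the top 9.42%. All 14 sites had a −log10 q of at least 8.84, against a minimum of 1.31 for the list, and none was near the calling threshold.

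**Figure D1:**
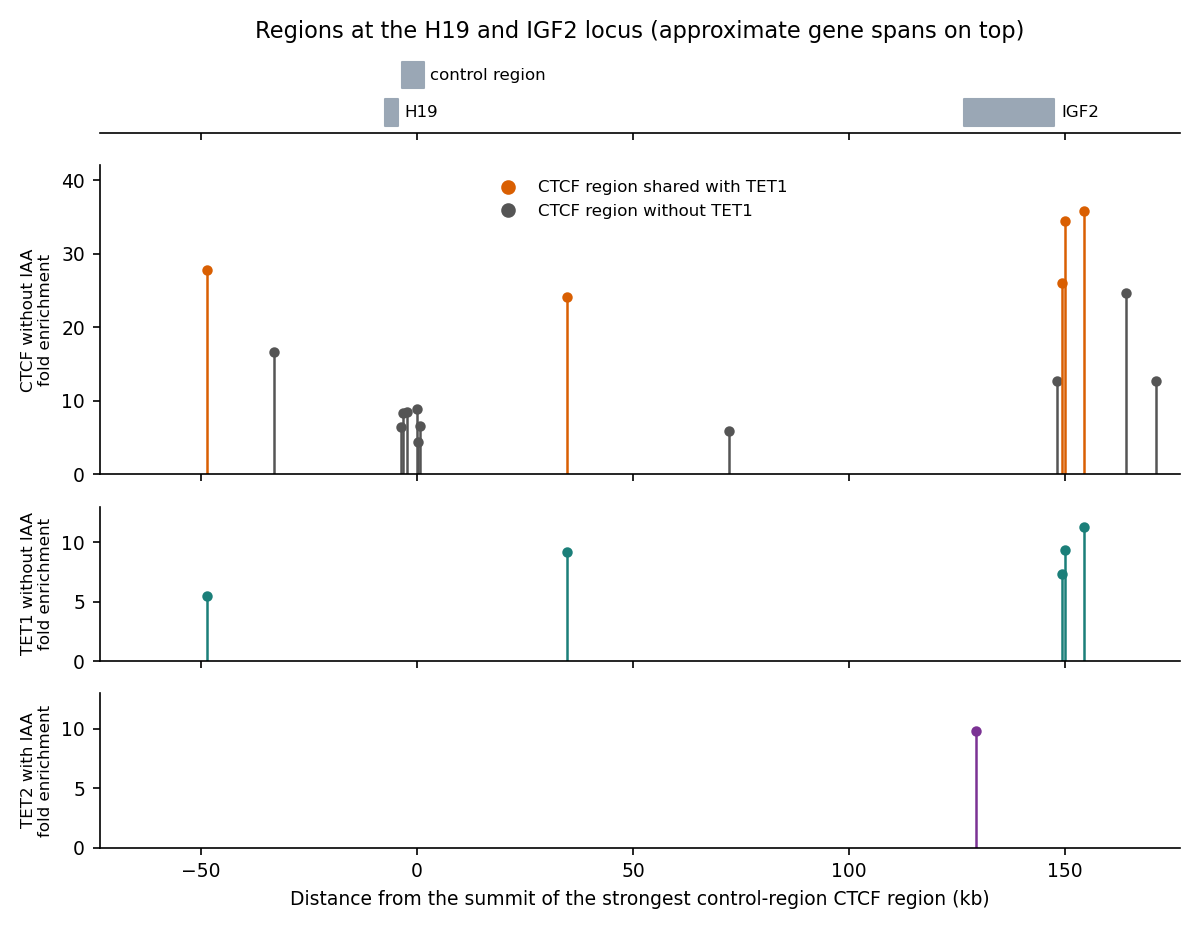
Fold enrichment of every CTCF and TET1 region without IAA and of the TET2 region with IAA, plotted at each summit (kb from the summit of site 6), below the approximate spans of H19, the control region and IGF2. The strongest CTCF sites, up to 35.8-fold, stand beyond the upper end of IGF2, and the cluster at the control region stays below 9-fold.

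CTCF binding was dense here. With 14 regions the window of 250 kb held more CTCF regions than 98.7% of the 10469 genome bins of the same length that had a region in any list, whose median was 4. The neighbouring windows of equal length held 7 regions on the lower side and 9 on the upper side. By their median fold these neighbours held stronger CTCF regions, at 27.4 and 24.5 against 12.7. Bins are not replicates, so this is a description of position in the list.

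At the control region, CTCF gave 5 regions in a row within 4.75 kb, sites 3 to 7. Site 3, at 2019620 to 2019863, lay 620 bp beyond the approximate upper end of H19. It ended 137 bp below the approximate start of the control region. As these limits are approximate, site 3 could not be placed inside or outside the control region. Sites 4 to 7 lay inside its approximate span, at 2020187 to 2020373, 2021089 to 2021310, 2023331 to 2023875 and 2024130 to 2024369. By fold all 5 were in the lower part of the list and close to each other, with 6.46-, 8.39-, 8.49-, 8.9- and 6.56-fold enrichment in that order. Their ranks by fold ran from 28961 to 34770 of 42925, which is from 67.5% to 81.0% of the way down the list. By −log10 q they stood at 22.6, 18.9, 32.9, 29.2 and 20.7, against a list median of 33.4. Ranked by −log10 q they lay nearer the middle of the list, from 50.6% to 64.5% of the way down.

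Site 6 held 2 summits, a main one at 2023447 and a lesser one at 2023796 with 4.36-fold enrichment, so the cluster had 6 summits in all. Going up the coordinates, successive summits were 534, 921, 2248, 349 and 459 bp apart. The longest step, 2248 bp between sites 5 and 6, split the cluster into a lower set of 3 summits and an upper set of 3. Regions with over 1 row in the list were uncommon, at 2.1% of all CTCF regions, and the locus had 2 of them, sites 6 and 11.

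**Figure D2:**
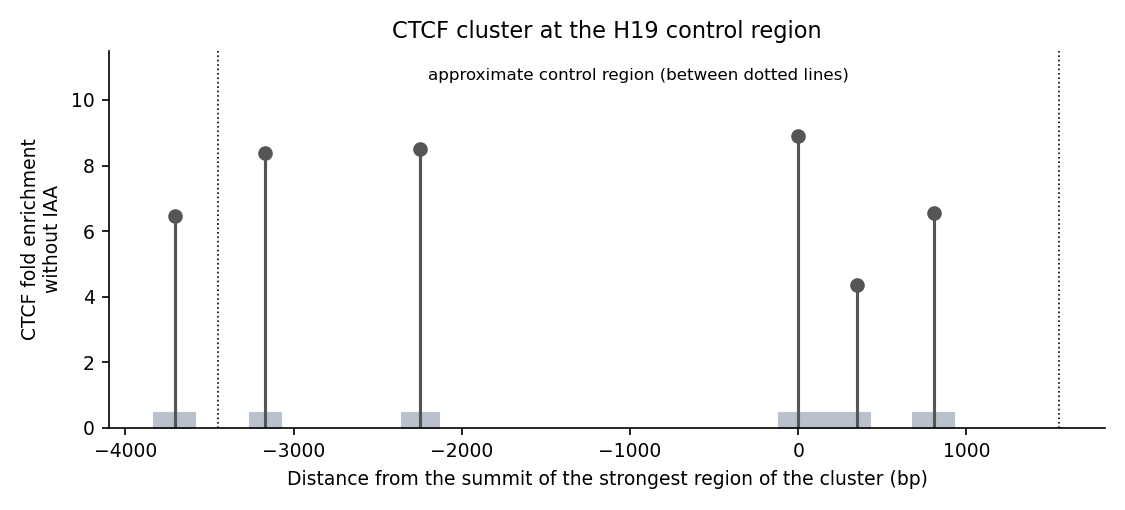
CTCF fold enrichment without IAA at each of the 6 summits of the cluster, with grey bars for the extent of the 5 regions and dotted lines for the approximate control region. Distance is in bp from the summit of site 6, and all 6 summits fall between 4.36- and 8.9-fold.

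No other run of 5 neighbouring CTCF regions in the list was as short. Of 42716 such runs the cluster ranked 1 by span, at 4750 bp, against a median of 193.0 kb, and 23 runs spanned 10 kb or less. The next shortest non-overlapping run, on chromosome 19 at 50599151 to 50605621, spanned 6.47 kb. That run held a CTCF region of 54.6-fold, and 4 of its 5 regions carried TET1 and 2 carried MBD3, whereas at the H19 cluster none did. The rank rested on the run length and on joining rows. For other settings the shortest run inside the cluster was ranked. It ranked 8 among runs of 4, 18 among runs of 3 and 135 among pairs, and 13 when single summits were used in place of joined regions. The measure was chosen after the cluster had been seen, and no test was made.

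**Figure D3:**
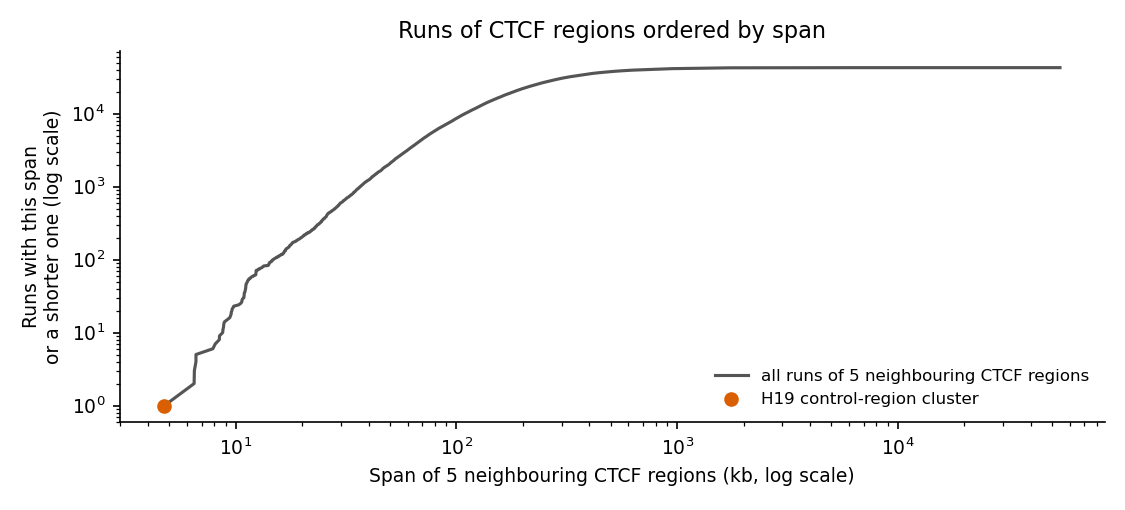
Cumulative number of runs of 5 neighbouring CTCF regions without IAA against their span in kb, both on log axes. The H19 cluster, at 4.75 kb, is the first point of the curve, before the next run at 6.47 kb.

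On either side of the cluster stood single, mostly stronger sites. Below H19, site 1 at 1974773 to 1975085 had 27.7-fold enrichment (rank 8238) and site 2 at 1990319 to 1990615 had 16.7-fold (rank 17720). Between the control region and IGF2, site 8 at 2058115 to 2058492 had 24.1-fold (rank 10824), and site 9 at 2095600 to 2095789, the weakest of the locus, had 5.94-fold (rank 36138). From there to 2171502 no CTCF region was called over 75.7 kb, a stretch that takes in the approximate span of IGF2. This gap was not exceptional in the list, since 73.5% of gaps between neighbouring CTCF regions were shorter, with a median of 33.2 kb.

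Beyond the upper end of IGF2, which is the 5′ side of this gene and the side of INS and TH, 5 further sites fell within 23.2 kb. Site 10 at 2171502 to 2171699 began 502 bp past the approximate end of IGF2 and had 12.6-fold enrichment (rank 22654). Site 11 at 2172636 to 2173524 had 34.4-fold (rank 4608) and held summits at 2172836 and 2173365, of 26.0- and 34.4-fold, 529 bp apart. Site 12 at 2177727 to 2178062 had 35.8-fold (rank 4043) and a −log10 q of 180.0. Sites 13 and 14, at 2187346 to 2187630 and 2194469 to 2194682, had 24.6-fold (rank 10416) and 12.8-fold (rank 22543). The median over these 5 sites was 24.6-fold, against 8.39-fold over the 5 of the control region cluster, and the ranges did not overlap (12.6 to 35.8 against 6.46 to 8.9).

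TET1 was called at 4 of the 14 CTCF sites, numbers 1, 8, 11 and 12, a share of 28.6% (Wilson 95% interval 11.7% to 54.6%). The share over all CTCF regions was 34.4%, inside that interval. The interval treats the sites as independent, although 5 of them lay within 4.75 kb, so it is a description and not a test. The 4 sites with TET1 had 24.1- to 35.8-fold CTCF enrichment, and the 10 without had 5.94- to 24.6-fold. The classes met at 1 pair of sites: site 8 carried TET1 at 24.1-fold and site 13 did not at 24.6-fold. In the list as a whole, 81.1% of the 6786 CTCF regions between the weakest and the strongest TET1 site of the locus carried TET1. That range of fold also includes site 13.

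At the control region cluster TET1 was called at 0 of 5 sites. Of the 5810 CTCF regions with a fold in the range of the cluster, 4.25% carried TET1, so an absence at 5 sites is what most regions of that strength showed. The same range gave 0.964% for MBD3 and 1.03% for TET2. With 5 sites and no read counts, TET1 below the calling threshold could not be told from none.

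**Figure D4:**
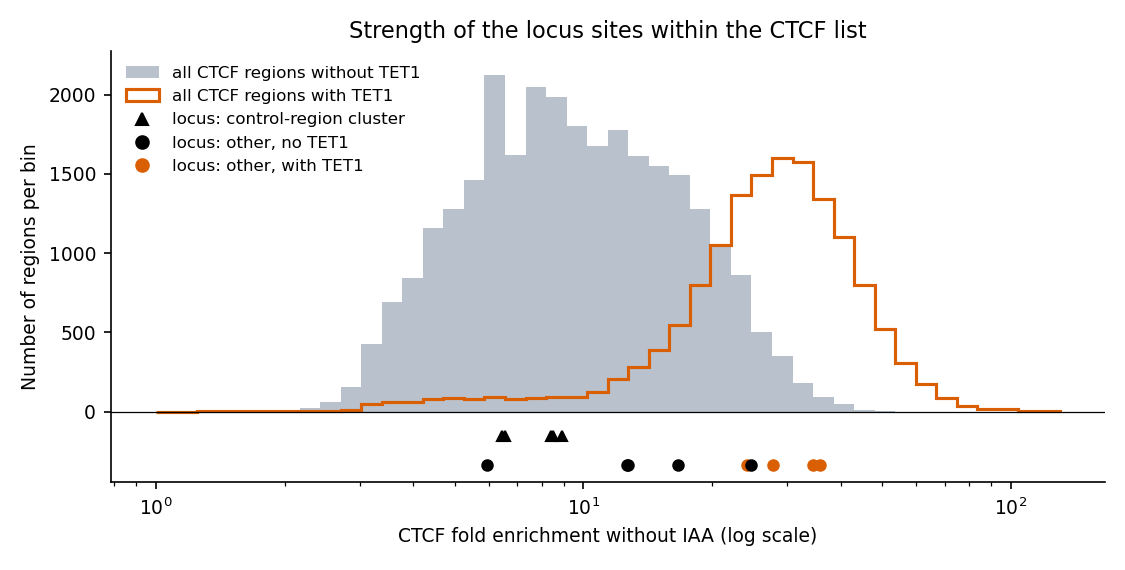
Number of CTCF regions without IAA by fold enrichment (log axis), grey for regions without TET1 and orange for regions with TET1, with the 14 locus sites marked below. The cluster sites (triangles, 6.46- to 8.9-fold) lie where regions without TET1 prevail, and the 4 sites with TET1 lie at 24.1-fold and above.

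The 5 TET1 regions sat on the CTCF summits and were 167 to 274 bp wide, against a median of 197 bp in the TET1 list. At site 1 TET1 was called at 1974858 to 1975035 with 5.49-fold enrichment (rank 12108 of 16246), the weakest of the locus. At site 8 it was called at 2058203 to 2058476 with 9.2-fold (rank 4720). Site 11 held a TET1 region under each of its CTCF summits, at 2172739 to 2172905 with 7.36-fold (rank 8053) and at 2173262 to 2173457 with 9.37-fold (rank 4544). At site 12 the region ran from 2177770 to 2178011 with 11.3-fold (rank 2471), the strongest of the locus for both TET1 and CTCF. TET1 summits lay 2, 2, 2, 4 and 1 bp from the nearest CTCF summit in this order. Such distances are not given here for the whole TET1 list, so this closeness is not shown to be particular to the locus. In the whole TET1 list, 91.1% of regions shared a base with CTCF, and at the locus all 5 did.

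MBD3 was called at 0 of the 14 CTCF sites, which allows a share of up to 21.4%. The share over all CTCF regions was 8.67%, so the absence was within what 14 sites can show. In the range of fold of the 4 sites with TET1 the share was 16.1%. Most of the 14 sites were weaker than that range, so the limit does not apply to it. The nearest MBD3 regions lay 96.1 kb below the window, at 1853731 to 1853948 with 8.69-fold enrichment, and 222.0 kb above it, at 2421548 to 2421727 with 4.06-fold. Both of these shared a base with CTCF and with TET1. Among the 137 genome bins with at least 14 CTCF regions, 28 (20.4%) held no MBD3 region, and 39 held no more than 5 TET1 regions, the number at the locus, against a median of 7.

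TET2 without IAA was also called at 0 of the 14 sites, against 1.10% of all CTCF regions. The nearest TET2 region of that list lay 1460.0 kb above the window. In total 10 of the 14 CTCF sites carried none of the 3 other proteins, and in the whole list 64.4% of CTCF regions did so.

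With IAA, none of the 14 CTCF sites was called. Over the whole list 0.126% of CTCF regions were still called, 54 of 42925, and the nearest CTCF region left on chromosome 11 lay 49400.0 kb from the window. The strong sites 11 and 12 and the control region cluster, weaker by fold, were alike in this. All 5 TET1 regions were likewise no longer called, where 0.222% of the TET1 list was kept. As nearly every region of both lists went uncalled, the locus did not stand apart. Read depth is unknown for every list, and a shallow list calls fewer regions.

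The single region called with IAA was a TET2 region at 2152723 to 2153259, inside the approximate span of IGF2. It was 537 bp wide and had 9.79-fold enrichment, rank 44 of 3022 by fold (top 1.46%), and a −log10 q of 11.4, rank 279 (top 9.23%). No antibody had a region there without IAA. The TET2 list was shorter without IAA, at 1326 regions against 3022. How many of the 3022 also lacked a region without IAA is not given here, so this is not shown to be particular to IGF2. The nearest CTCF summit without IAA, that of site 10, was 18.8 kb away. In the list of TET2 regions with IAA, 1.16% overlapped one of the CTCF regions called without IAA, so a position away from CTCF was the usual one. With IAA the TET2 list was the longest, at 3022 regions against 63 for CTCF, 50 for MBD3 and 325 for TET1. A TET2 region with IAA was present in 17.4% of the genome bins of this length. Within the first 5 Mb of chromosome 11 there were 15 such regions, of 3.97- to 9.79-fold, and the IGF2 region was the strongest of them.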

How the data were processed

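ChIP-seq samples numbered 30, in 10 groups of 3 (4 antibodies and input, without and with IAA). The 8 deposited lists are narrowPeak files, 1 per antibody and condition, each pooled over 3 samples by the authors. Per the submitters' processing notes the genome build was hg19, and the tools, listed without their roles, include Bowtie2 2.3.4 and MACS2 2.1.2. The control of the lists was not given in the sources used here. The authors deposited a fold enrichment (a ratio), −log10 q, a score that restates −log10 q, and a summit offset. Fold and q were used only within a list.

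Rows of a list sharing at least 1 bp were joined, keeping the highest fold and the summit of the highest −log10 q. Regions sharing 1 bp counted as shared, and those of the same antibody in both conditions as kept. Rank 1 is the highest fold. Bins start at position 1 of each chromosome. Every region of the window is named. Joining and overlap were tested on simulated data. Python 3.11.15 and SciPy 1.17.1 were used, with 95% Wilson intervals, and the limit for a count of 0 is 3 counts. Both cover counting error over regions only and treat the regions as independent. The window, gene list and measures were chosen with earlier results of these data known.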

Additional observations from a re-analysis of the deposited data

How the results depend on the processing

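No replicate could be left out, because the lists are pooled. No paired analysis was possible because each group has 1 pooled list with no replicate values. Of 73 alternative values, 14 moved, where a count had to change by over 1.5 times, the place among bins by 2 percentage points or more, and a median or rank at all. A window 50 kb shorter at each end leaves out sites 1, 2 and 10 to 14: it held 7 CTCF regions with a median of 8.39-fold, 1 of them with TET1, and more CTCF regions than 94.5% of bins of its length. The TET2 region called with IAA also fell outside it, leaving 0 regions with IAA. A window 50 kb longer held 18 CTCF regions, 6 of them with TET1, and gave a median of 14.7-fold, and −log10 q of at least 10 gave 12.8. Ranked by −log10 q in place of fold, the sites had a median place 49.1% down the list, against 52.6%. With 50% overlap of both regions, 2 TET1 regions counted as away from CTCF, and with summits within 200 bp 1 did, since joined site 11 keeps 1 summit. The shortest run inside the control region cluster ranked 8 among runs of 4 regions, 18 among runs of 3, 135 among pairs and 13 by single summits. All of these were added after seeing the data. The whole cluster stayed at rank 1 at −log10 q of at least 5 or 10 and at a fold of at least 5. No setting tried gave an MBD3 or TET2 region at a CTCF site of the locus without IAA, or a CTCF site kept with IAA. Read depth is unknown, which limits any statement of absence.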

Other observations

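Tight runs of CTCF regions elsewhere differed in strength and in TET1. Among runs of 5 that do not overlap, the third shortest lay on chromosome 1 at 155056568 to 155064436. It spanned 7.87 kb with a median of 31.0-fold, and 3 of its regions carried TET1. A run on chromosome 10 at 63656723 to 63664791 spanned 8.07 kb with a median of 5.99-fold, and 2 carried TET1. Of the 10 shortest runs that do not overlap, only the H19 cluster and a run on chromosome 16 at 31463150 to 31472295 (9.15 kb, median 7.19-fold, highest 8.91-fold) carried neither TET1 nor MBD3. In both of these every region was below 9-fold.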
